A study of Homo sapiens with 4 samples.

Results

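Open regions that set the colorectal cancer line HCT116 apart from the colorectal cancer line RKO, and RKO apart from HCT116, were picked out of 1 peak list per line. On chromosomes 1 to 22, the 20000 peaks with the most stacked tags were taken from each list, with ties settled by length and then by position. A top HCT116 peak with no overlapping RKO call at any strength formed the HCT116 side, and a top RKO peak with no overlapping HCT116 call formed the RKO side. The HCT116 side held 3352 of 20000 top peaks (16.8%, exact Clopper-Pearson 95% interval 16.2 to 17.3). The RKO side held 5467 of 20000 (27.3%, interval 26.7 to 28.0). The remaining 16648 HCT116 peaks and 14533 RKO peaks were shared. Each side is what the rule selects, so the size of the sides is a description and not a test.

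The series profiled 4 unedited (labelled wild type) human cancer lines, HCT116 and RKO from colorectal cancer and SKBR3 and T47D from breast cancer, to look at chromatin around the gene PVRL4 and its control by FOS family proteins. Each line had 1 library of single-end reads of 60 bp and no treatment. HCT116 grew in the same medium as SKBR3 (McCoy's 5A), RKO in DMEM and T47D in RPMI, so line and medium cannot be told apart between HCT116 and RKO. With 1 library per line there is no replicate check and no test between lines, and all intervals cover counting error only.

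ATAC-seq uses a transposase that inserts adapters into DNA not wrapped in nucleosomes, so stacked tags mark promoters, enhancers and other bound elements. Promoters of genes that most cells use tend to be open in all cell types, while distal enhancers differ more between cell types and between tumours of 1 tissue. HCT116 and RKO are both models of mismatch-repair-deficient colorectal cancer. Regions are named here by hg19 position. No gene is assigned to them, because no annotation or genome of that build was used, and for the same reason neither the labelled tissue was checked against marker genes nor was any sequence read at the peaks.

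Depth differed strongly. HCT116 kept 1057628 tags after removal of duplicate positions and RKO 3262240, against 4313512 in SKBR3 and 5450100 in T47D, so RKO had 3.08 times the tags of HCT116. Duplicates made up 63% of the tags in both colorectal lines, 47% in SKBR3 and 49% in T47D. HCT116 had 38941 peaks on chromosomes 1 to 22 and RKO 64571, against 108561 in SKBR3 and 75390 in T47D. Over the whole lists, 31.3% of the HCT116 peaks had no overlapping RKO call and 60.0% of the RKO peaks had no overlapping HCT116 call. A region without a call in the shallow HCT116 library need not be closed, and this bears on every RKO-side region below. The pileup at a summit (stacked tags) and the fold enrichment over local background are the authors' values for each peak, in a scale of its own for each library, and were read only within a list.

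The cut at 20000 fell among ties. The last HCT116 peak inside had a pileup of 6 and a fold enrichment of 6.51, and the first outside had 6 and 6.39, with 3406 HCT116 peaks at that pileup. The last RKO peak inside had a pileup of 12 and a fold of 9.81, and the first outside had 12 and 10.1, with 1653 RKO peaks at that pileup.

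Within the top 20000 of each line, side peaks were weaker and narrower than shared peaks at the median. In HCT116 the median pileup was 8 on the HCT116 side and 10.0 in shared peaks, the median fold 7.02 and 8.46, and the median length 197 bp and 236 bp. In RKO the median pileup was 16.0 on the RKO side and 25 in shared peaks, the median fold 7.49 and 11.9, and the median length 232 bp and 406 bp. A shorter peak also meets an overlap of 1 bp less easily. Of the shared HCT116 peaks, 75.7% overlapped a peak of the RKO top 20000, and 4042 met only a weaker RKO call. Of the shared RKO peaks, 82.8% overlapped a peak of the HCT116 top 20000, and 2496 met only a weaker HCT116 call.

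The share of side peaks climbed as peaks became weaker, and more steeply in RKO. Each top list was divided by pileup rank into 5 classes of 4000 peaks. In the highest class, 4.83% of HCT116 peaks (193) and 4.12% of RKO peaks (165) were side peaks, and the intervals of 4.18 to 5.54 and 3.53 to 4.79 overlapped. In the next class the shares were 11.6% in HCT116 and 12.3% in RKO. In the middle class they were 17.0% in HCT116 and 25.8% in RKO, then 22.1% in HCT116 and 41.8% in RKO, and in the lowest class 28.4% in HCT116 and 52.7% in RKO. The RKO side exceeded the HCT116 side in the weaker 3 classes. The part of the lower HCT116 depth in that excess was not tested.

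**Figure D1:**
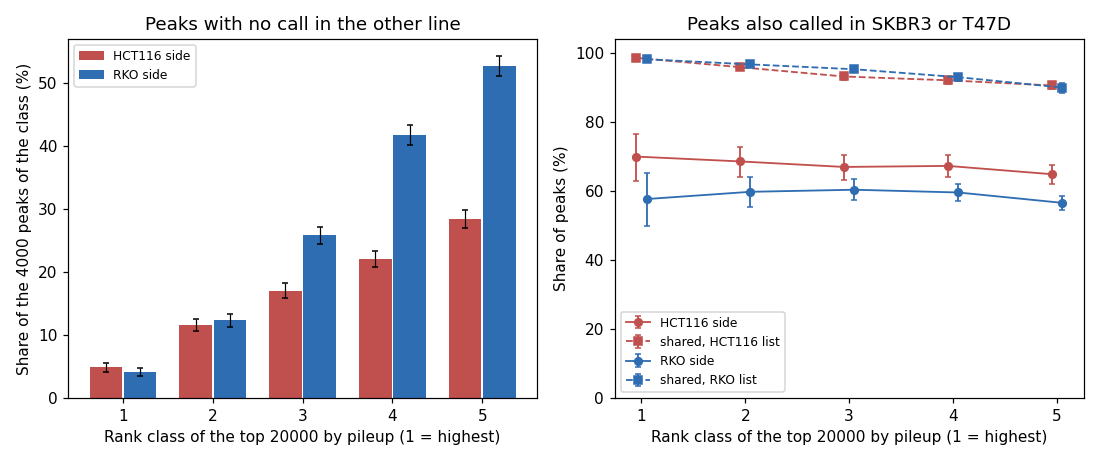
Left, share of the 4000 peaks of each rank class (1 is the highest pileup) that had no call in the other colorectal line, HCT116 in red and RKO in blue. Right, share of side peaks (circles, solid lines) and shared peaks (squares, dashed lines) also called in SKBR3 or T47D. Bars and points carry exact 95% intervals for counting error. Side shares reached 28.4% in HCT116 and 52.7% in RKO in the lowest class, while the breast-line share of each side stayed between 56.5% and 69.9%.

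The breast lines gave a measure that the rule did not use. Of the HCT116-side peaks, 66.7% (interval 65.1 to 68.3) were called in SKBR3 or T47D, against 94.2% (93.9 to 94.6) of the shared HCT116 peaks. Of the RKO-side peaks, 58.5% (57.1 to 59.8) were called in a breast line, against 95.3% (94.9 to 95.6) of the shared RKO peaks. Most regions that separated the colorectal lines were therefore called in at least 1 line of another tissue. The gap between side and shared peaks was present at every strength. In the highest class, 69.9% of HCT116-side and 98.5% of shared HCT116 peaks had a breast call, and 57.6% of RKO-side and 98.1% of shared RKO peaks did. Breast calls were scored by the same overlap of 1 bp, which the narrower side peaks meet less easily. The part of peak width in the gap was not tested.

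Both breast lines were called at a larger share of HCT116-side than of RKO-side peaks, by a wider margin in SKBR3. SKBR3 had a call at 58.7% of HCT116-side peaks (57.0 to 60.4) and at 43.8% of RKO-side peaks (42.5 to 45.1). T47D had a call at 51.8% of HCT116-side peaks (50.1 to 53.5) and at 48.9% of RKO-side peaks (47.6 to 50.3). SKBR3 without T47D was called at 500 HCT116-side peaks (14.9%) and 520 RKO-side peaks (9.51%). T47D without SKBR3 was called at 268 HCT116-side peaks (8%) and 803 RKO-side peaks (14.7%). Thus the breast line met alone was more often SKBR3 on the HCT116 side and more often T47D on the RKO side, with intervals that did not overlap (13.7 to 16.2 and 7.10 to 8.97 on the HCT116 side, 8.75 to 10.3 and 13.8 to 15.7 on the RKO side). Shared peaks leaned to SKBR3 alone in both lists. SKBR3 alone met 5.55% of shared HCT116 and 4.36% of shared RKO peaks, and T47D alone 3.50% and 3.61%. The lean of the HCT116 side thus had the direction seen in shared peaks, and that of the RKO side did not. The SKBR3 list was also the longer, with 108561 peaks against 75390 in T47D. SKBR3 and HCT116 shared a medium, and the part of the medium was not tested. Both breast lines were called at 1467 HCT116-side peaks (43.8%) and 1873 RKO-side peaks (34.3%). Neither was called at 1117 HCT116-side peaks (33.3%) and 2271 RKO-side peaks (41.5%), which were then called in 1 line of the 4.

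**Figure D2:**
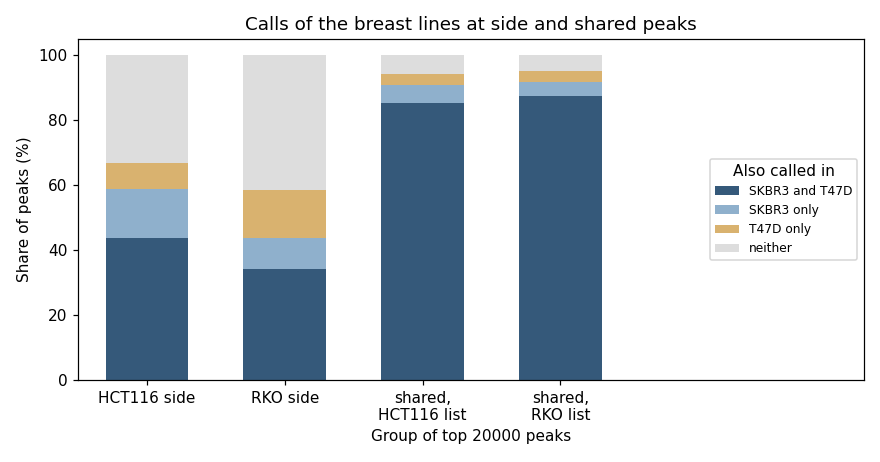
Stacked shares of HCT116-side, RKO-side and shared top peaks by the breast lines in which they were also called. Neither breast line was called at 33.3% of the HCT116 side and 41.5% of the RKO side, against 5.77% of shared HCT116 peaks and 4.74% of shared RKO peaks.

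The strongest HCT116-side region called in neither breast line was chr1:17026785-17027351, with a pileup of 40, a fold of 12.9 and rank 71 in the HCT116 list. The next was chr6:159151525-159151977, with a pileup of 36 and a fold of 15.8, and then chr17:70657617-70658215, with 27 and 12.7. The nearest RKO calls lay 2400 bp from the chromosome 1 region and 9755 bp from the chromosome 6 region. These were strong, wide HCT116 peaks of 453 to 599 bp.

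Other strong HCT116-side regions were open in the breast lines too. The region chr17:80325757-80326094 had a pileup of 38 and a fold of 22.6 in HCT116, and was called weakly in SKBR3 (pileup 3, percentile 21.9 of its own list) and T47D (pileup 9, percentile 42.3). By contrast chr12:7055500-7055823, with a pileup of 35 in HCT116, was near the top in SKBR3 (pileup 66, percentile 99.7) and T47D (60, percentile 96.3), and its nearest RKO call was 1426 bp away. The region chr3:37034581-37035016 had a pileup of 29 and a fold of 14 in HCT116, 63 in SKBR3 (percentile 99.6) and 92 in T47D (percentile 99.8), and its nearest RKO call lay 22921 bp away. It was thus among the strongest peaks of 2 libraries of another tissue and not called in RKO. The region chr17:8534066-8534813 showed the same arrangement, with 31 in HCT116, 42 in SKBR3 and 75 in T47D, and its nearest RKO call lay 57720 bp away. The region chr6:14271259-14271660, with 35 in HCT116, had its nearest RKO call 59543 bp away, was called weakly in SKBR3 (pileup 5) and not in T47D. Of the 10 HCT116-side peaks of highest pileup, 5 were called in both breast lines, 3 in 1 and 2 in neither.

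Of the 10 RKO-side peaks of highest pileup, 3 were called in both breast lines, 1 in 1 and 6 in neither. The region chr12:133706636-133707278 had a pileup of 56 and a fold of 17.1 in RKO, 31 in SKBR3 (percentile 93.4) and 70 in T47D (percentile 98.2), with the nearest HCT116 call 50618 bp away. The region chr9:130007378-130007822 had 56 in RKO with a fold of 24.0, 28 in SKBR3 and 75 in T47D, and its nearest HCT116 call lay 19973 bp away. These are positions where the 3 deeper libraries had a strong peak and HCT116 had none. The region chr9:82186363-82186912, with 54 in RKO and 39 in SKBR3 (percentile 96.5), was not called in T47D and lay 588340 bp from the nearest HCT116 call. The region chr17:74366842-74367151 (pileup 50, fold 21.1) and the region chr14:62222032-62222265 (48, fold 20.9) were called in RKO alone, with HCT116 calls 5065 bp and 4011 bp away. In T47D but not SKBR3, the strongest RKO-side region was chr17:41438220-41438700, with a pileup of 46 in RKO and 76 in T47D (percentile 98.9).

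The first place on the RKO side was of another kind. The peak chr5:134263600-134263709 had the highest pileup of the side, 64, but a fold of only 2.49 and a length of 110 bp, and an HCT116 call began 89 bp from it. The peak chr5:99387248-99387360 was similar, with a pileup of 54, a fold of 4.25 and a length of 113 bp. Around them lay 7 and 5 HCT116 calls within 10 kb, beside 8 and 6 RKO calls, so both stood in places dense in calls of both lines. Among the 1000 highest RKO peaks these were the only 2 of 17 side peaks with a fold below 5, and none of the 29 HCT116-side peaks at those ranks was below 5.

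HCT116-side peaks lay farther from calls of the other line than RKO-side peaks did at the middle of the distribution, but RKO-side peaks held the longest distances. The distances were measured to lists of unlike length, 64571 RKO calls and 38941 HCT116 calls, and the part of list length in them was not tested. The median distance to the nearest RKO call was 7.07 kb for the HCT116 side (quartiles 2.43 and 20.6 kb), and the median distance to the nearest HCT116 call was 2.07 kb for the RKO side (0.504 and 11.2 kb). No RKO call lay within 100 kb of 61 HCT116-side peaks (1.82%), and no HCT116 call lay within 100 kb of 222 RKO-side peaks (4.06%). The nearest RKO call was over 1 kb away for 87.2% of the HCT116 side, and the nearest HCT116 call was over 1 kb away for 62.2% of the RKO side, so more RKO-side peaks stood close beside a call of the other line.

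Along the chromosomes the RKO side was unevenly spread. It made up 37.4% of the RKO top peaks on chromosome 9 (401 of 1073, interval 34.5 to 40.3) and 35.8% on chromosome 8 (345 of 964, 32.8 to 38.9). The next was chromosome 21 with 29.8%, and the lowest chromosome 15 with 20.3% (17.2 to 23.7). On chromosomes 8 and 9 together the share was 36.6% (34.5 to 38.8), against 26.3% (25.6 to 26.9) on the other chromosomes, and these chromosomes were set apart after their values were seen. Other RKO values differed on chromosomes 8 and 9 too, though not on them alone or not on both. The median pileup of shared RKO peaks was 28.0 on chromosomes 8 and 9 and 25 elsewhere, and the quartiles there were 19.0 and 40.0 against 18.0 and 34.0. That median was 27.0 on chromosomes 7 and 19, where the RKO-side share was 29.6% and 27.3%. The share of RKO-side peaks called in a breast line was 52.0% on chromosomes 8 and 9 and 59.5% elsewhere. It was lowest of all on chromosome 8 at 45.8% (40.5 to 51.2). On chromosome 9 it was 57.4% (52.4 to 62.3), an interval that holds the value elsewhere. The part of these in the higher share was not tested.

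The HCT116 side had a narrower range than the RKO side when chromosomes 8 and 9 were included. It ran from 12.6% of top HCT116 peaks on chromosome 22 (9.93 to 15.7) and 13.0% on chromosome 19 (11.2 to 14.8) to 21.5% on chromosome 4 (18.5 to 24.7). On chromosomes 8 and 9 it was 18.0% (16.2 to 19.9) against 16.6% elsewhere, with a median pileup of shared HCT116 peaks of 10.0 in both. Without chromosomes 8 and 9 the RKO side ran from 20.3% to 29.8%. Some chromosomes were low or high on both sides. Chromosomes 15 and 22 held 14.1% and 12.6% for HCT116, and 20.3% and 23.9% for RKO. Chromosomes 4 and 21 held 21.5% and 19.5% for HCT116, and 29.0% and 29.8% for RKO. Others differed, such as chromosome 20 with 18.9% for HCT116 and 23.4% for RKO. The HCT116-side share of peaks with a breast call was highest on chromosome 15, at 80.4% (71.1 to 87.8), and lowest on chromosome 21, at 56.8% (41.0 to 71.7).

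**Figure D3:**
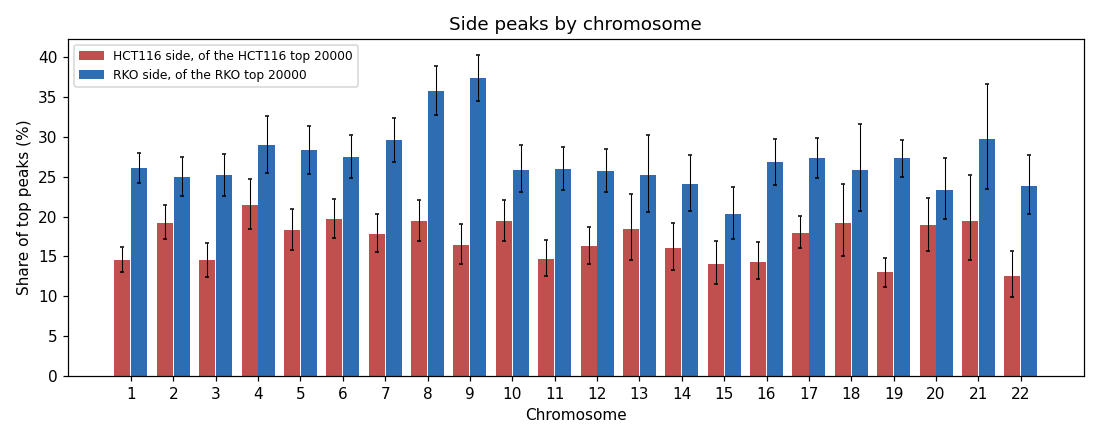
Share of the top 20000 peaks of each line that were side peaks, by chromosome, HCT116 in red and RKO in blue, with exact 95% intervals for counting error. The RKO bars on chromosomes 8 and 9 reach 35.8% and 37.4%, above all other RKO bars, and the HCT116 bars lie between 12.6% and 21.5%.

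The sides were then counted in 1 Mb bins. Of 2324 bins with a top peak of either line, 1393 held an HCT116-side peak and 1603 an RKO-side peak, and 1045 (45.0%, 42.9 to 47) held both. Only HCT116-side peaks lay in 348 bins and only RKO-side peaks in 558. The most HCT116-side peaks in a bin was 12 and the most RKO-side peaks 33. At least 10 side peaks were found in 8 bins for HCT116 and in 95 for RKO.

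**Figure D4:**
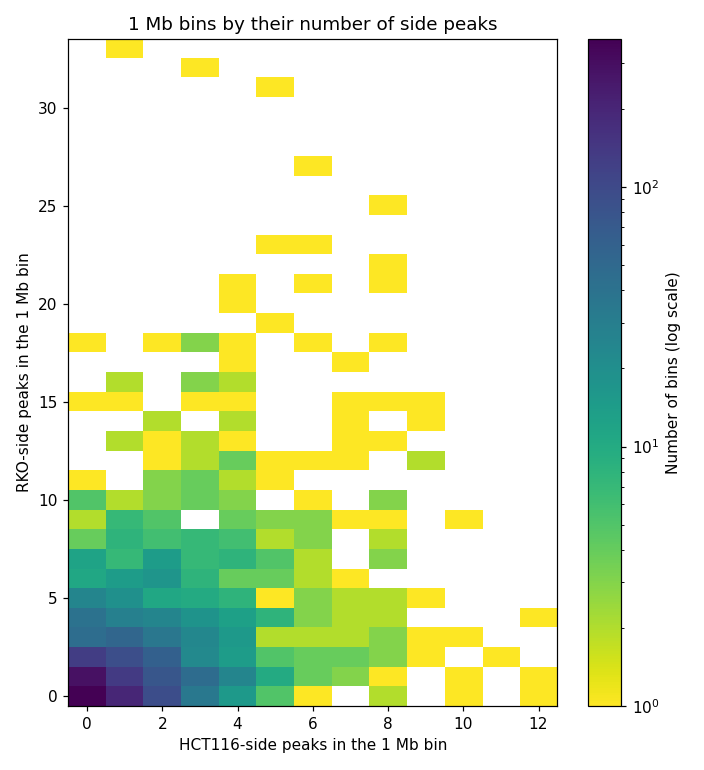
Number of 1 Mb bins (colour, log scale) with each count of HCT116-side peaks (x) and RKO-side peaks (y), over bins with a top peak of either line. The bins richest in RKO-side peaks, with up to 33, held 8 or fewer HCT116-side peaks, and the bins with 12 HCT116-side peaks held 0 to 4 RKO-side peaks.

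Of the 8 bins richest in HCT116-side peaks, 5 lay on chromosome 17, which held 1409 top HCT116 peaks. The share of them on the HCT116 side was 18.0% (16.0 to 20.1), near the 16.8% over all chromosomes. The bins at 48 to 49, 55 to 56 and 72 to 73 Mb of that chromosome held 12 each, beside 4, 0 and 1 RKO-side peaks. At 55 to 56 Mb the lists held 40 HCT116 and 32 RKO calls, of which 21 and 6 were in the top lists, so RKO had calls there but mostly weak ones. At 70 to 71 Mb of chromosome 17 there were 10 HCT116-side peaks and 0 RKO-side peaks, with 40 HCT116 calls, 21 RKO calls, 69 in SKBR3 and 50 in T47D. The RKO list, the longer of the colorectal lists, thus held fewer calls than the HCT116 list in these 2 bins. The bin at 76 to 77 Mb held 10 HCT116-side and 9 RKO-side peaks, with 51 HCT116 and 65 RKO calls. Off chromosome 17, the bin at 13 to 14 Mb of chromosome 12 held 11 HCT116-side and 2 RKO-side peaks, the bin at 151 to 152 Mb of chromosome 6 held 10 and 1, and the bin at 105 to 106 Mb of chromosome 10 held 10 and 3.

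The bins richest in RKO-side peaks were also rich in calls of every line. The bin at 130 to 131 Mb of chromosome 9 held 33 RKO-side peaks and 1 HCT116-side peak, with 58 HCT116, 105 RKO, 117 SKBR3 and 122 T47D calls. The bin at 139 to 140 Mb of chromosome 9 held 32 RKO-side and 3 HCT116-side peaks, and the bin at 145 to 146 Mb of chromosome 8 held 31 and 5. Next came 1 to 2 Mb of chromosome 19, with 27 RKO-side and 6 HCT116-side peaks, and 26 to 27 Mb of chromosome 6, with 25 and 8. In these dense bins the RKO-side peaks stood among shared peaks. Of the RKO top peaks, 33 of 71 and 32 of 73 were RKO-side in the chromosome 9 bins, and 31 of 78 in the chromosome 8 bin. In the chromosome 19 bin 27 of 78 were, and in the chromosome 6 bin 25 of 65. All of these shares lay above the 27.3% over all chromosomes.

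A second ranking took the share of top peaks that were on a side, in bins with at least 10 top peaks. By that measure the bin at 13 to 14 Mb of chromosome 8 came first for RKO. All 10 of its RKO top peaks were RKO-side, the RKO list held 28 calls there, SKBR3 6, T47D 2 and HCT116 0. The bin at 121 to 122 Mb of chromosome 5 followed, with 15 of 16 RKO top peaks on the RKO side and 4 HCT116, 32 RKO, 17 SKBR3 and 15 T47D calls. At 81 to 82 Mb of chromosome 4, 13 of 15 were RKO-side, and at 192 to 193 Mb of chromosome 2, 10 of 14 were. For HCT116, 8 of 11 top peaks were HCT116-side at 1 to 2 Mb of chromosome 6 and also at 52 to 53 Mb of chromosome 20. The chromosome 20 bin held 26 HCT116, 31 RKO, 115 SKBR3 and 59 T47D calls. At 224 to 225 Mb of chromosome 2, 8 of 13 HCT116 top peaks were HCT116-side and 0 of 2 RKO top peaks were RKO-side.

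Bins without any call were nearly all HCT116's. HCT116 had no call in 272 bins that held an RKO call, in 172 stretches of neighbouring bins, while RKO had none in 2 bins that held an HCT116 call. HCT116 kept 1057628 tags and RKO 3262240, and the part of depth in this difference was not tested. The stretch at 13 to 16 Mb of chromosome 8 held 44 RKO, 21 SKBR3 and 13 T47D calls and 0 HCT116 calls, with 10 RKO-side peaks. The stretch at 131 to 133 Mb of chromosome 11 held 31 RKO, 25 SKBR3 and 16 T47D calls, with 4 RKO-side peaks. The longest stretch, 59 to 66 Mb of chromosome 16, held 27 RKO, 56 SKBR3 and 24 T47D calls, with 2 RKO-side peaks.

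At a finer scale, side peaks at most 50 kb apart were joined into runs. The HCT116 side formed 2702 runs, of which 2220 were single peaks, 15 had at least 5 members and 0 had at least 10. The RKO side formed 3393 runs, of which 2369 were single peaks, 122 had at least 5 members and 17 had at least 10. Single peaks were 66.2% of HCT116-side members and 43.3% of RKO-side members, and runs of at least 5 held 2.39% and 15.7%. A side with more members on the same chromosomes forms runs with more members, so these shares are not set against each other. The share with a breast call was lowest in runs of at least 5 members on both sides, a difference that was not tested. A breast call was present at 47.5% (36.2 to 59.0) of the 80 HCT116-side members in runs of at least 5, which come from 15 runs, against 65.4% (62.4 to 68.3) in runs of 2 to 4 and 68.0% (66.0 to 69.9) of single HCT116-side peaks. It was present at 52.9% (49.5 to 56.3) of the 858 RKO-side members in such runs, against 60.0% (57.9 to 62.0) in runs of 2 to 4 and 59.1% (57.0 to 61.0) of single RKO-side peaks. Members of a run share a neighbourhood and are not independent.

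The HCT116-side run with the most members was chr12:12988369-13036511, with 7 members in 48.1 kb. Their pileups were 6, 11, 7, 8, 14, 7 and 6 along the run. The run held 8 HCT116 calls in all and 2 RKO calls, of which 1, chr12:12990086-12990275 with a pileup of 13, was itself an RKO-side peak lying between HCT116-side members. SKBR3 had 5 calls there and T47D 1. The other RKO call, chr12:13034637-13034773 with a pileup of 3, overlapped an HCT116 call of the run.

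The run chr1:16983176-17084330 held 6 HCT116-side members with pileups of 12, 40, 17, 10, 10 and 6. Calls were dense there in every line, with 13 in HCT116, 10 in RKO, 14 in SKBR3 and 13 in T47D. The run chr1:201977421-202075184 held 6 members with pileups of 9, 19, 9, 11, 11 and 6. There the lists held 9 HCT116 and 2 RKO calls, with RKO pileups of 3 and 6, beside 16 SKBR3 calls with pileups up to 64 and 15 T47D calls up to 80. This run was thus densely open in both breast lines, open in HCT116 and nearly free of calls in RKO, the deeper of the colorectal libraries. In contrast, the run chr10:114250409-114299368 held 5 HCT116-side members with a highest pileup of 20, and 6 HCT116, 0 RKO, 1 SKBR3 and 0 T47D calls. The run chr2:227476641-227538410 likewise held 5 members, with a highest pileup of 23, and 6 HCT116, 1 RKO, 2 SKBR3 and 0 T47D calls.

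The RKO-side run with the most members, chr6:26126404-26328518, held 17 members with pileups of 13 to 33 in 202 kb. It held 15 HCT116, 33 RKO, 35 SKBR3 and 28 T47D calls, so the neighbourhood was open in all 4 lines and the RKO-side members stood among shared peaks. HCT116-side peaks also lay within the run, at chr6:26206247-26206377 and chr6:26305627-26305775, each with a pileup of 6. The run chr7:130560544-130645474 held 14 members, with pileups of 13 to 35. The lists there held 6 HCT116, 23 RKO, 11 SKBR3 and 4 T47D calls. The highest pileup was 23 in HCT116, 53 in RKO, 61 in SKBR3 and 11 in T47D.

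The run chr5:121429238-121518566 held 13 RKO-side members in 89.3 kb and was open in RKO almost alone. Its members had pileups of 15, 22, 15, 19, 25, 17, 18, 27, 16, 16, 18, 14 and 13 along the run. HCT116 had 0 calls there, RKO 16, SKBR3 3 with a pileup of 3 each, and T47D 1 with a pileup of 8. The run chr12:65996762-66057788 was similar, with 13 members, a highest pileup of 38, and 4 HCT116, 20 RKO, 4 SKBR3 and 0 T47D calls. The runs chr9:130639756-130764277 and chr17:8021744-8152297 also had 13 members each. The chromosome 9 run held 11 HCT116, 26 RKO, 22 SKBR3 and 28 T47D calls. The chromosome 17 run held 23 HCT116, 37 RKO, 30 SKBR3 and 29 T47D calls. RKO-side runs thus included both stretches that were dense in all lines and stretches that were dense in RKO and sparse in the breast lines. How common each kind was among all runs was not counted.

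**Figure D5:**
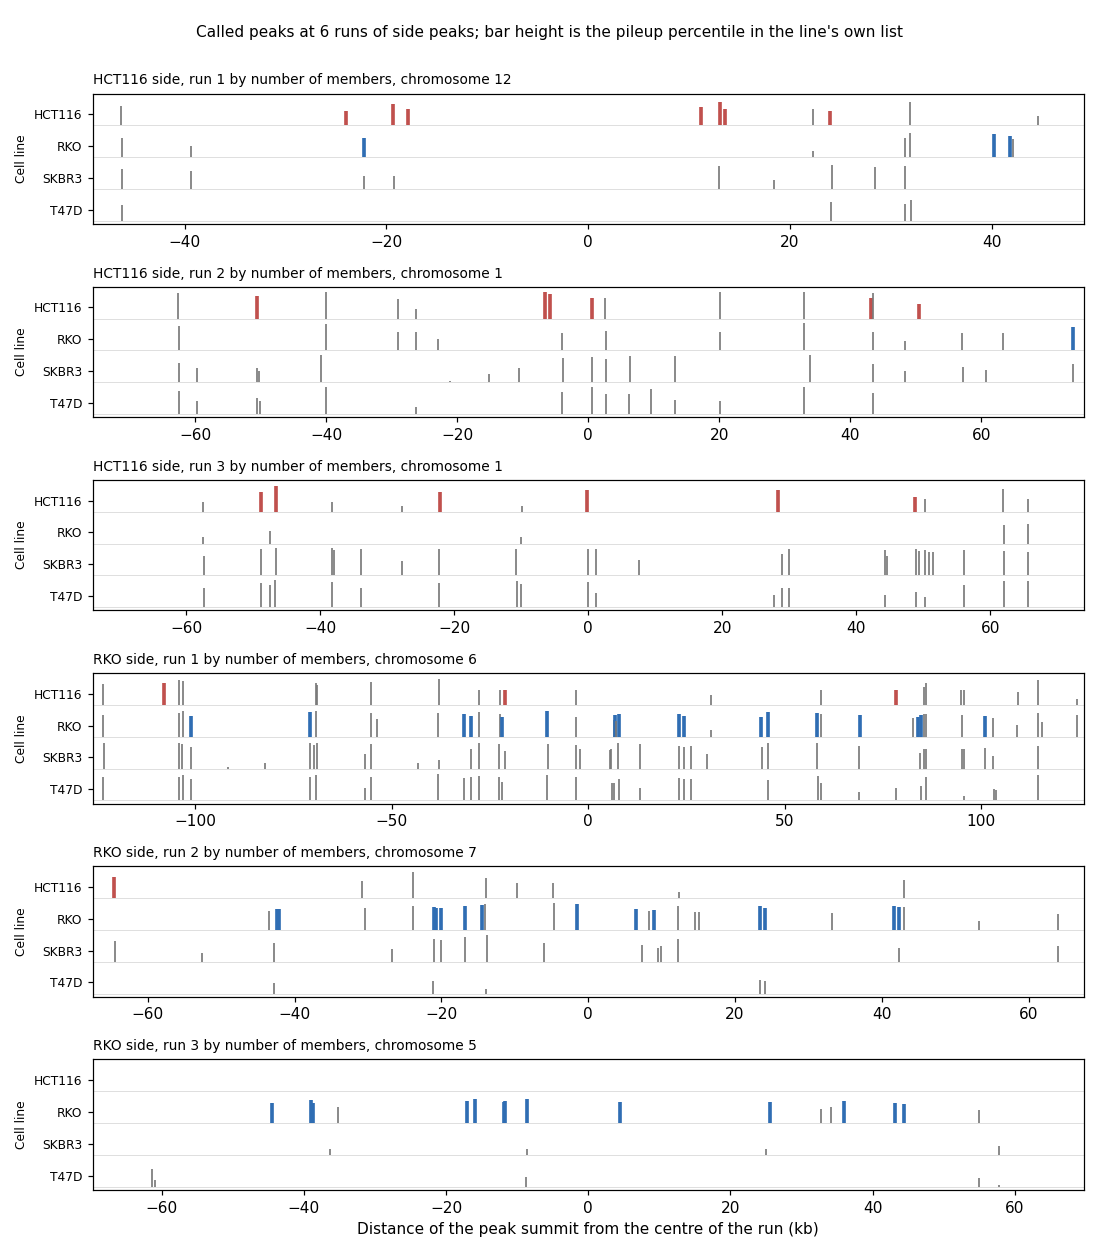
Called peaks in each line around the 3 runs with the most members on the HCT116 side (upper panels) and on the RKO side (lower panels), by distance of the summit from the centre of the run in kb. Ties in the number of members were settled by position. Coloured bars are HCT116-side (red) and RKO-side (blue) peaks, grey bars all other calls, and bar height is the pileup percentile within the line's own list. In the lowest panel, on chromosome 5, HCT116 has 0 calls and RKO 13 side peaks, and in the third panel, on chromosome 1, 6 HCT116-side peaks stand over 16 SKBR3 and 15 T47D calls in the run.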

How the data were processed

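The submitters' processing notes name Bowtie2 2.4.1, MACS3 3.0.0b3 and the build hg19, for reads of 60 bp. Per the file headers, the authors called peaks on each library separately, with no control library, a q cutoff of 0.1, 1 tag kept per position, and tags extended by a modelled fragment of 107 bp in HCT116, 105 bp in RKO, 117 bp in SKBR3 and 110 bp in T47D. The headers record no shift of tags towards the insertion site. Per the file headers, each deposited row holds the pileup signal at the summit, the −log10 p-value, a fold enrichment ratio over local background and the −log10 q-value. None was scaled between libraries. Whether the authors filtered reads on mapping quality is not stated in the labels or headers.

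Peaks on other sequences than chromosomes 1 to 22 were left out, from 1351 in HCT116 to 4316 in SKBR3. Overlaps of at least 1 bp, rank classes, bins of 1 Mb by summit and runs were computed with Python 3.11.15, pandas 2.3.3, NumPy 2.4.6 and SciPy 1.17.1, and figures drawn with matplotlib 3.10.9. Percentiles are ranks of pileup within a list. The code was tested on simulated data, where 0 of 20000 peaks were given a wrong side. Alternatives changed the number of peaks taken, the ranking, the overlap, the q threshold, the list length and the bin size.

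The peaks named were drawn from the 10 of highest pileup on each side and the strongest of each breast-line pattern. The bins named were drawn from those with the most side peaks or the highest share of them. Not all peaks and bins of these groups were named, and the choice among them was made with their values known. The 3 runs of each side with the most members were also named, with ties in that number settled by position. The other runs named were picked after their values were seen. The members, rules and breakdowns were chosen with earlier results of these data known, and the breast-line patterns, stretches, runs and chromosomes 8 and 9 after the values were seen. Gene lists, distances to gene starts and motifs had been planned but were not analysed here, because the reference tables used are of build GRCh38.p14 and coordinates were not carried between builds.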

Additional observations from a re-analysis of the deposited data

How the results depend on the processing

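The number of peaks taken set the size of the sides. With 10000 peaks per list the HCT116 side held 970 and the RKO side 1089, and with 30000 per list 7161 and 11516. The share of the HCT116 side called in a breast line was then 69.7% and 63.3%, and that of the RKO side was 54.2% with 30000 peaks. Ranking by −log10 q gave a breast-line share of 52.5% on the RKO side, and counting a call within 500 bp as overlap gave 53.4%. With the RKO list shortened to the HCT116 length the HCT116 side held 4355 peaks (21.8%), against 3352 with the full list, and had a breast-line share of 70.0%. Absent HCT116 calls were scored on the same HCT116 list as before, so this alternative says nothing on how HCT116 depth bears on the RKO side. In bins of 2 Mb, 63.8% of bins held both sides. The causes of these moves were not tested. The RKO side was the larger under every one of these alternatives, an overlap of at least 0.5 of the shorter peak and a −log10 q of at least 2 included. It held 4107 peaks against 3074 on the HCT116 side when a call within 500 bp counted as overlap. Ranked by −log10 q, it held 4559 against 3555. Every alternative rested on the same shallow HCT116 library, so none can show the part of HCT116 depth in the larger RKO side. On chromosomes 8 and 9 the RKO-side share was 35.7% with the shortened RKO list, an alternative chosen after seeing the data, and 25.8% elsewhere.

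Not run were the planned results and alternatives on distance to a gene start (1 kb and 2 kb), gene lists and motifs, which need an hg19 annotation or genome. No paired analysis was possible because each line has 1 library and no result comes from a test. An absent HCT116 call, on which the RKO side rests, comes from 1057628 tags.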
